A study of Manis javanica with 3 samples.

Results

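The genes described here are 10 that glucocorticoid hormones or fasting are known to induce in mammals: FKBP5, TSC22D3, SGK1, DDIT4, PDK4, ANGPTL4, KLF9, DUSP1, ZBTB16 and TXNIP. They were taken by symbol from the deposited annotation, which covered 22538 genes. Expression values were given for 24220 gene models (predicted genes of the assembly and new genes that the authors added from the reads). The question asked of the 10 genes was whether they were high in every tissue of the same animal or in one. A member symbol stood in the Swiss-Prot or KEGG entry of 27 models, and the product name in the NR protein entry kept 11 of these as the members themselves and set 16 aside as paralogs or other proteins. All 10 genes were found. DUSP1 and ZBTB16 were found through KEGG and NR, since their Swiss-Prot entries name other genes, and FKBP5 was matched by a pair of models.

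RNA was sequenced from liver, salivary glands and small intestine of 1 Malayan pangolin (Manis javanica), an anteating mammal with scales. It was an adult female from the wild whose stomach held ants, and it did not survive its rescue. Each tissue gave 1 library, so no value below has a replicate check, and differences between libraries are differences between these 3 samples. The counts of fragments on genes summed to 14568778 for liver, 8318686 for salivary glands and 10158924 for small intestine.

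Glucocorticoids enter cells and bind a nuclear receptor, which then moves to DNA and raises the transcription of genes that curb inflammation, curb growth and release stored fuel. Fasting acts on an overlapping set of genes through falling insulin, rising glucagon and fatty acids that bind PPAR receptors. In liver the response is known for glucose production, and in muscle and fat for a switch from glucose to fatty acids.

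The tissue labels were compared with cell type markers by FPKM, the authors' fragments per length of transcript and number of mapped fragments. Values are given in the order small intestine, salivary glands and liver unless the libraries are named. Hepatocyte markers (8 of 8 found) summed to an FPKM of 109, 123 and 24347, and all 8 were higher in liver than in both other libraries. FGB, a fibrinogen chain, was the most abundant in liver at 12822, followed by FGA at 9658, while TTR had only 6.77. Most of the first sum was ALB at 89.1, and nearly all of the second was SERPINA1 at 120. Stomach markers (9 of 9 found) summed to 55901, 49.8 and 0, led by the chitinase gene CHIA at 43108 in the library labelled small intestine. In that library 7 of the 9 had an FPKM above 1, while GIF and LIPF had only 0.872 and 0.539, from 9 and 5 counts. The models used for these 9 had a count of 0 in liver, where further models of PGC had 0, 3 and 6 counts. Enterocyte markers (8 of 9 found) summed to 25.4, 26.6 and 47.5. Almost all of the first sum was villin (VIL1) at 24.0, while FABP2, LCT and CDX1 had a count of 0 in the library labelled small intestine. That library therefore carried 7 of the 9 stomach markers above an FPKM of 1 and almost no enterocyte markers, which goes against its label. It is called the library labelled small intestine below.

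Of the salivary gland markers 4 of 8 were found, with sums of 4.18, 97.1 and 27.6, nearly all of it the water channel gene AQP5 at 94.3 in the salivary gland library. The other markers found, LPO, BPIFA2 and KLK1, had counts of only 6, 2 and 20 in that library, and KLK1 had 46 in liver. Among these markers the salivary gland label thus rested on AQP5 alone. Smooth muscle markers (3 of 4 found) summed to 2016, 83.3 and 0.850, with desmin (DES) the highest at 754 in the library labelled small intestine. Skeletal muscle markers (5 of 6 found) summed to 26.4, 29.6 and 0.0329, and adipocyte markers (6 of 6 found) to 14.6, 25.2 and 5.14. Endothelial markers (4 of 4 found) stood at 40.5, 22.7 and 29.9, and macrophage markers (4 of 4 found) at 10.8, 9.20 and 86.6. T and B cell markers (4 of 4 found) summed to 0.857, 0.240 and 10.6, and erythroid markers (2 of 3 found) to 4.06, 0.0625 and 0.512. The libraries thus differed in the cell types they held, and in whole tissue fewer cells of a type and less RNA per cell cannot be told apart.

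**Figure D1:**
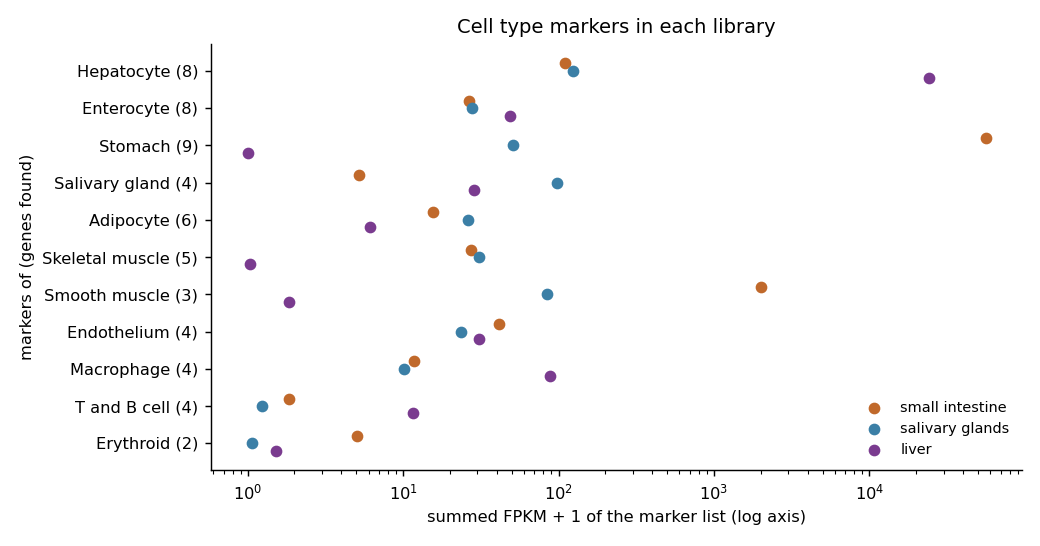
Summed FPKM plus 1 (log axis) of each list of cell type markers in the 3 libraries, with the number of markers found in parentheses. Stomach markers summed to 55901 in the library labelled small intestine and hepatocyte markers to 24347 in the liver library.

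A gene was called high where its FPKM was in the top 10% of all gene models in that library, which began at an FPKM of 25.04, 25.08 and 30.04. By this rule 7 of the 10 members were high in all 3 libraries: FKBP5, TSC22D3, DDIT4, PDK4, KLF9, ZBTB16 and TXNIP. Over all genes the share high in all 3 was 5.57%. SGK1 and DUSP1 were high in 2 libraries and ANGPTL4 in 0. Counted by library, 9 members were high in the library labelled small intestine, where 10% of all genes are by construction. The salivary gland library had 8 high members, against 10% of all genes, and the liver library 8, against 10%. Every member had an FPKM above 1 in all 3 libraries, as did 46.9% of all genes. The high level of most members was thus shared by the 3 libraries. It held for 7 members with the salivary gland and liver libraries alone, a check chosen after seeing the data, against 6.47% of all genes. The count in all 3 fell to 4 when high was taken as the top 5%, against 2.498% of all genes. The members lost were FKBP5, TSC22D3 and ZBTB16, each outside the top 5% in liver.

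DUSP1 lay at the edge of the rule. Its FPKM of 25.2 was just inside in the library labelled small intestine, and its 29.6 just outside in liver. FKBP5 at 33.0 and ZBTB16 at 35.3 were also near the cut of 30.04 in liver, on the inside.

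**Figure D2:**
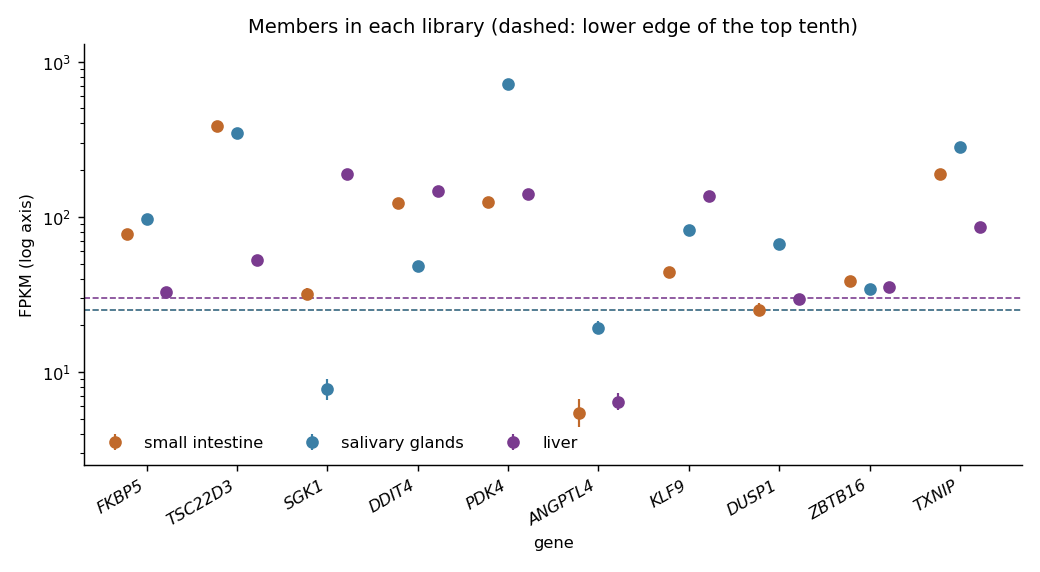
FPKM (log axis) of each member in the 3 libraries, with bars for the 95% Poisson interval of its count and dashed lines at the lower edge of the top 10% of all genes in each library. ANGPTL4 was under the line in all 3 libraries and SGK1 in the salivary gland library.

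The members' median FPKM was 60.7, 74.4 and 69.2, where that of all genes was 2.16, 1.76 and 1.89. Together they took 0.219%, 0.553% and 0.221% of all counts. The highest member differed between libraries: TSC22D3 at an FPKM of 382 in the library labelled small intestine, PDK4 at 719 in the salivary gland library and SGK1 at 189 in the liver library.

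For differences between libraries, counts were scaled by TMM, a factor per library that sets most genes level, and a gene was called different at 2-fold or more. Intervals are exact 95% intervals of counts or of ratios of counts, and cover counting error only. Between liver and the library labelled small intestine 5 of 10 members were called, against 49.0% of 18948 genes tested, with 2 higher in liver (23.0% of all genes) and 3 lower (26.0%). Between liver and salivary glands 8 were called, against 48.0% of 18638 genes, with 2 higher in liver (23.8%) and 6 lower (24.2%). Between salivary glands and the library labelled small intestine 5 were called, against 38.7% of 18180 genes, with 3 higher in the salivary glands (17.2%) and 2 lower (21.5%). With counts scaled by library size alone 5 were higher and 1 lower there, and 44.7% of all genes were called in either direction. On TMM-scaled counts the first count was near the share of all genes. The second stood further from it, with a median log2 fold of -1.29 over the members and 0.04 over all genes tested. At 4-fold it did not, with 3 members called against 24.8% of all genes. By FPKM with a pseudocount of 1, over the same genes, the counts were again 5, 8 and 5 and the shares 33.5%, 32.3% and 22.9%, a check chosen after seeing the data, so the distance from all genes depended on the measure.

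Shared high levels did not mean level expression. From its highest to its lowest library a member's scaled count differed by a median of 3.64-fold, from 1.08-fold for ZBTB16 to 21.8-fold for SGK1. Among 11280 genes with an FPKM above 1 and more than 3 counts in all 3 libraries, the median was 1.94-fold.

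**Figure D3:**
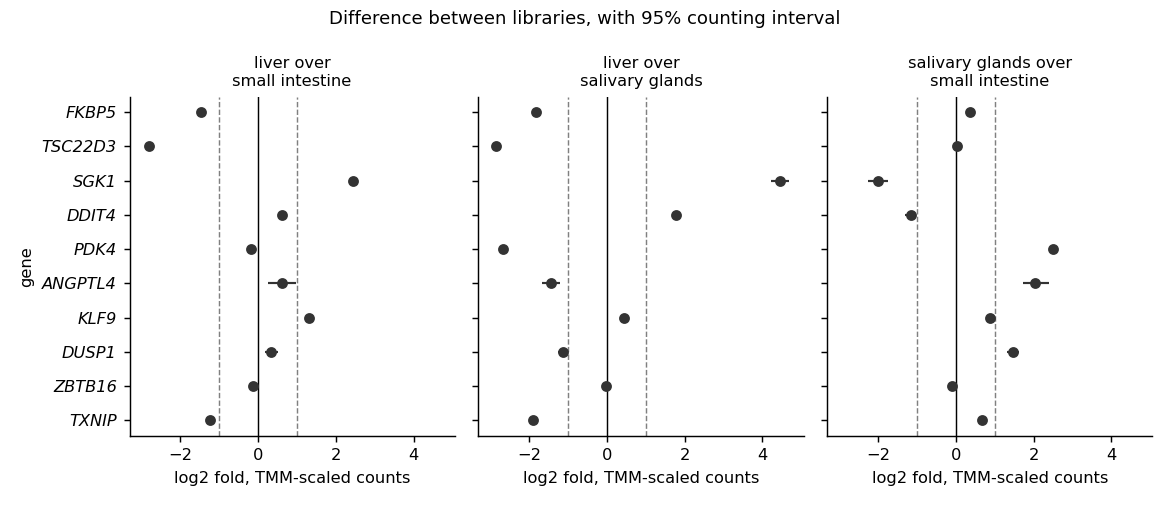
Log2 fold of each member between libraries on TMM-scaled counts, with 95% counting intervals; dashed lines mark 2-fold. FKBP5, TSC22D3 and TXNIP were lower in liver than in both other libraries, and SGK1 was higher.

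The first group of members damps the hormone's own signal or inflammation. FKBP5 encodes a co-chaperone that holds the glucocorticoid receptor in a state of low affinity, so that its induction closes a feedback loop. Its longer model (gene25501, NW_016575059.1:198-12749, plus strand) had an FPKM of 77.1, 96.9 and 33.0, from counts of 1959, 2854 and 1208. It was 2.75-fold lower in liver than in the library labelled small intestine (2.55 to 2.95) and 3.56-fold lower than in salivary glands (3.32 to 3.81). The salivary gland library exceeded the library labelled small intestine by 1.30-fold (1.22 to 1.37), which is under the 2-fold rule. FKBP5 was thus high in every library and lowest in liver.

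The shorter FKBP5 model (gene25858, NW_016582956.1:6155-25718, minus strand), 596 bases long and named FKBP5-like in NR, had an FPKM of 99.8, 132 and 52.2 from counts of only 161, 262 and 136. Each model was the sole one on its scaffold, and whether they are pieces of 1 gene was not tested. The order of libraries was the same in both. The deposited FPKM of the short model was 3.75, 2.49 and 3.33 times its count over length and library total, against 1.28, 0.906 and 1.28 for the long one, so the FPKM of the pair cannot be compared as if both were scaled alike.

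TSC22D3 (gene7183, NW_016531671.1:332271-390226) encodes GILZ, a leucine zipper protein that restrains NF-kappa-B and AP-1. Its FPKM was 382, 348 and 52.4, from counts of 6334, 7280 and 1534. Liver was 6.99-fold below the library labelled small intestine (6.61 to 7.40) and 7.15-fold below the salivary glands (6.76 to 7.55). The other 2 libraries did not differ beyond counting error, at 1.02-fold (0.988 to 1.06), and the sign of that difference turned with upper quartile scaling, the authors' scaled counts and FPKM. Even at its lowest, in liver, TSC22D3 ranked 1359 of 24220 genes.

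DUSP1 (gene10434, NW_016534291.1:228200-231202) encodes a phosphatase that switches off MAP kinases. Its FPKM was 25.2, 66.9 and 29.6, from counts of 435, 1355 and 930. The salivary gland library was 2.77-fold above the library labelled small intestine (2.49 to 3.09), and liver was 2.19-fold below the salivary glands (2.02 to 2.39). DUSP1 was thus highest in the salivary glands, with the remaining libraries 1.26-fold apart (1.13 to 1.42).

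A pair of members are transcription factors. KLF9, a zinc finger factor that responds early to the hormone (gene3941, NW_016529460.1:461246-490169), had an FPKM of 44.4, 81.9 and 136, from counts of 1834, 3781 and 7709. It was 2.48-fold higher in liver than in the library labelled small intestine (2.36 to 2.61), 1.35-fold higher in liver than in salivary glands (1.30 to 1.41) and 1.83-fold higher in salivary glands than in the library labelled small intestine (1.73 to 1.94). KLF9 rose in steps from library to library, each beyond counting error, though only the first difference was past 2-fold. With library size alone the difference between salivary glands and the library labelled small intestine passed it as well.

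ZBTB16, also called PLZF (gene13518, NW_016537131.1:185236-363638), had an FPKM of 38.8, 34.3 and 35.3, from counts of 2662, 2819 and 4159. It was the most even member. Liver and salivary glands did not differ beyond counting error, at 1.02-fold (0.973 to 1.07), and its largest difference on TMM-scaled counts was 1.08-fold. The sign of its differences with the library labelled small intestine turned with library size alone, and that between liver and salivary glands with FPKM.

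SGK1 (gene6137, NW_016530828.1:30361-139201) encodes a kinase that raises sodium and nutrient transport in epithelia. Its FPKM was 32.0, 7.75 and 189, from counts of 595, 168 and 5508. Liver was 5.47-fold above the library labelled small intestine (5.02 to 5.96) and 21.8-fold above the salivary glands (18.7 to 25.5). The salivary glands were 3.98-fold below the library labelled small intestine (3.35 to 4.75). SGK1 varied most of all members, and its order of libraries was unlike that of FKBP5 and TSC22D3, since liver was the highest and salivary glands the lowest.

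DDIT4, also called REDD1, lowers the activity of the growth kinase mTORC1 (gene4081, NW_016529555.1:29845-32060). It had an FPKM of 124, 47.9 and 147, from counts of 1343, 676 and 3507. Liver exceeded salivary glands by 3.45-fold (3.17 to 3.75) and the library labelled small intestine by 1.54-fold (1.45 to 1.64). Salivary glands were 2.23-fold below the library labelled small intestine (2.03 to 2.45), a difference that was under 2-fold when counts were scaled by library size alone. As with SGK1, liver was the highest and salivary glands the lowest.

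TXNIP (gene11939, NW_016535487.1:47889-51960) encodes an arrestin-like protein that limits glucose uptake. Its FPKM was 188, 284 and 86.0, from counts of 3897, 6965 and 2822. Liver was 2.34-fold below the library labelled small intestine (2.23 to 2.45) and 3.72-fold below the salivary glands (3.56 to 3.88). Salivary glands were 1.59-fold above the library labelled small intestine (1.53 to 1.65). TXNIP thus had the order of FKBP5; with library size alone its difference between liver and the library labelled small intestine fell under 2-fold, and that between salivary glands and the library labelled small intestine passed it.

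The last group directs fuel. PDK4 (gene17239, NW_016541626.1:74926-87527) encodes a mitochondrial kinase that shuts pyruvate dehydrogenase and so spares glucose when fatty acids are burned. Its FPKM was 125, 719 and 140, from counts of 3066, 19644 and 4621. The salivary gland library was 5.70-fold above the library labelled small intestine (5.49 to 5.92), and liver was 6.40-fold below the salivary glands (6.20 to 6.61). PDK4 was the member with the highest FPKM in any library, at rank 86 of 24220 genes in the salivary glands. Liver and the library labelled small intestine lay 1.12-fold apart (1.07 to 1.18), and which was higher changed with the scaling: liver was lower on TMM-scaled counts and higher on FPKM and with library size alone. The sums of adipocyte and skeletal muscle markers were 25.2 and 29.6 in the salivary gland library, against 14.6 and 26.4 in the library labelled small intestine. Of each of these lists 2 markers were higher in salivary glands than in that library and 2 lower. The part of such cells in the PDK4 level was not tested.

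ANGPTL4 (gene25597, NW_016577086.1:9755-15056), a secreted inhibitor of lipoprotein lipase, was the lowest member by FPKM in liver and in the library labelled small intestine, while in salivary glands SGK1 was lower. Its FPKM was 5.45, 19.2 and 6.45, from counts of 92, 428 and 238. The salivary gland library was 4.14-fold above the library labelled small intestine (3.30 to 5.24), and liver was 2.71-fold below the salivary glands (2.31 to 3.19). Liver was 1.53-fold above the library labelled small intestine (1.197 to 1.966). ANGPTL4 and PDK4 were thus both highest in the salivary gland library, at very different levels.

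The gene nearest to PDK4 in level and pattern together, by Euclidean distance of log2(FPKM + 1) over the 3 libraries among 24219 other genes, was gene3649, named kunitz-type protease inhibitor 2 in NR, at a distance of 1.04. It was followed by gene9346 (sialomucin core protein 24) at 1.19 and gene26525 (NDUFB10) at 1.27. Nearest to ANGPTL4 were gene5502 (solute carrier family 22 member 23) at 0.128, gene10758 (NUAK2) at 0.195 and gene13532 (FAM84B) at 0.257.

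Next, the members other than ZBTB16, for which no family was listed, were set beside the genes of their own families, since the question of level also concerns which isoform a tissue used. TSC22D3 held 83.8%, 73.9% and 64.2% of the summed FPKM of the 4 TSC22D genes, and TXNIP 77.4%, 76.3% and 73.0% of that of 6 arrestin genes. DDIT4 held 98.3%, 97.9% and 99.96% of its pair with DDIT4L. These 3 members led their families in every library.

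PDK4 also led, with 76.1%, 87.0% and 60.4% of the FPKM of the 4 PDK genes. PDK2, the isoform next in level, had an FPKM of 19.1, 56.1 and 71.2, PDK1 16.3, 39.0 and 18.4, and PDK3 3.82, 11.8 and 2.08. The margin of PDK4 over PDK2 was thus widest in salivary glands, at 12.8 times, and narrowest in liver, at 1.97 times.

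Other members led in some libraries only. SGK1 held 44.8%, 65.2% and 94.3% of the FPKM of 3 SGK genes; in the library labelled small intestine SGK2 was higher, at an FPKM of 36.8, against 0.0694 from 2 counts in salivary glands and 5.96 in liver. FKBP5 exceeded FKBP4, a co-chaperone that opposes it on the receptor, in the first libraries at 77.1 against 43.1 and 96.9 against 72.1. In liver FKBP4 was higher, at 88.6 against 33.0.

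Among 6 angiopoietin-like genes found of 8, ANGPTL4 came after ANGPTL2 (14.03) and ANGPTL1 (11.4) in the library labelled small intestine and was the highest in the rest. Of 17 KLF genes 16 were found, and KLF9 was the highest in salivary glands and liver. In the library labelled small intestine KLF15 (50.2) and KLF4 (46.2) exceeded its 44.4. DUSP1 held 55.05% of the FPKM of 10 DUSP genes in salivary glands. DUSP3 was above it in the library labelled small intestine, at 33.0, and DUSP5 close to it in liver, at 28.4. Family rank by FPKM was thus steadiest for TSC22D3, DDIT4, PDK4 and TXNIP, each first in all 3 libraries. Families were ranked by FPKM only, which was not a fixed multiple of count over length, so narrow margins between models may depend on that measure.

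**Figure D4:**
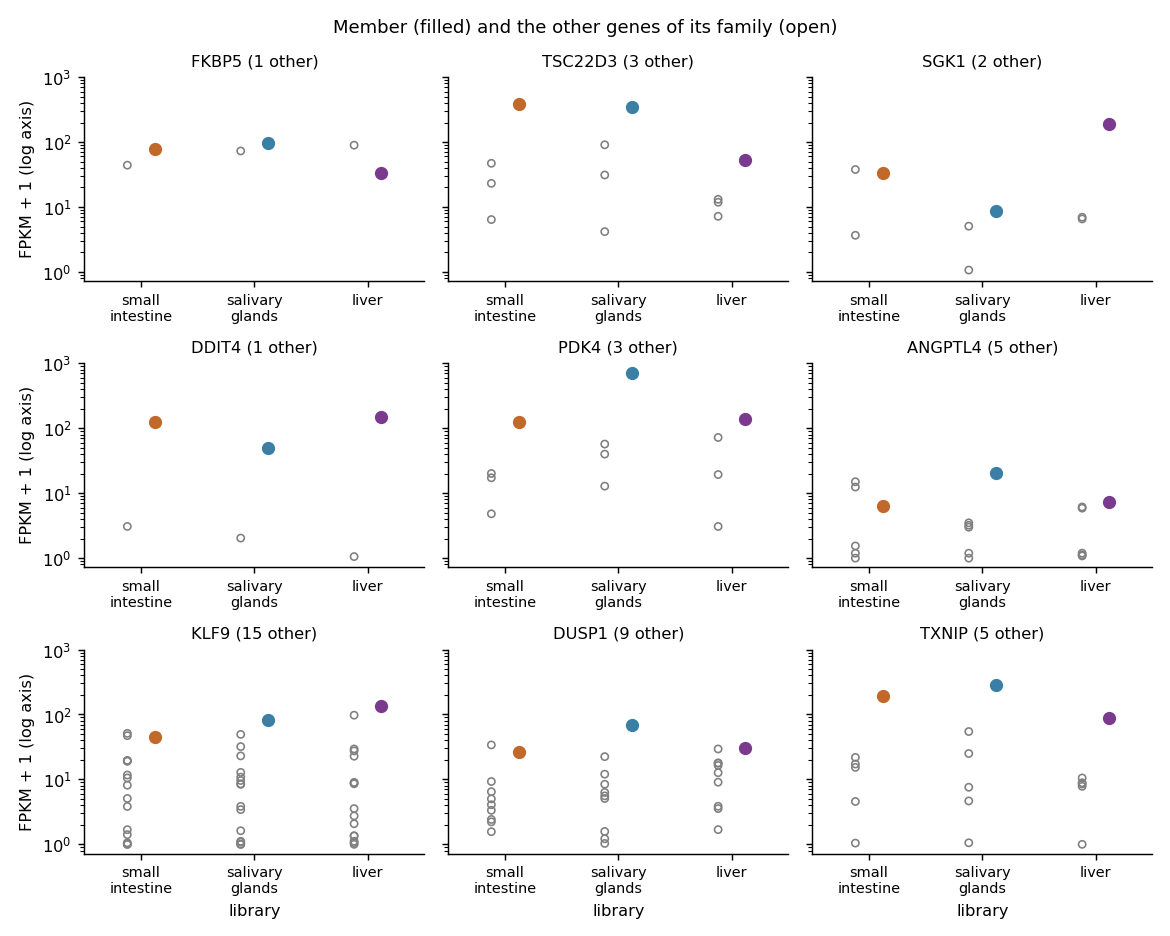
FPKM plus 1 (log axis) of 9 members (filled; ZBTB16 had no family listed) and of the other genes found of their families (open) in the 3 libraries. TSC22D3, DDIT4, PDK4 and TXNIP were the highest of their family in all 3 libraries, and FKBP5 was under FKBP4 in liver.

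The receptor and the enzymes that set the active hormone were examined next. The glucocorticoid receptor, NR3C1 (gene24409), had an FPKM of 10.9, 7.48 and 12.98, and a second, shorter model (gene25469) 4.85, 4.96 and 5.53. The mineralocorticoid receptor NR3C2, which binds the same hormone, was lower, at 0.896, 1.97 and 0.282. The receptor was therefore present in all 3 libraries at levels within 1.44-fold of each other on scaled counts, below the top 10% in each.

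HSD11B1, the enzyme that regenerates active hormone, had an FPKM of 10.1, 10.001 and 74.0 and was 7.36-fold higher in liver than in the library labelled small intestine (5.997 to 9.13) and 7.13-fold higher than in salivary glands (5.88 to 8.70). H6PD supplies the cofactor for that enzyme inside the endoplasmic reticulum. Its FPKM was 40.4, 74.5 and 3465, with 199710 counts in liver, 74.7-fold (71.1 to 78.6) and 40.6-fold (39.2 to 42.1) above the other libraries. HSD11B2, which inactivates the hormone, had counts of 5, 9 and 3. SERPINA6, the hormone's carrier in plasma, had a count of 1057 in liver and 0 in the others, at least 208-fold and 234-fold higher with a floor of 3 counts. The enzyme pair that activates the hormone and its carrier were thus highest in the liver library. By FPKM FKBP5, TSC22D3 and TXNIP were lowest in that library and SGK1, DDIT4 and KLF9 highest. On TMM-scaled counts PDK4 and ZBTB16 were lowest there as well, by narrow margins.

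Of the chaperones that hold the receptor, HSP90AB1, HSP90AA1 and PTGES3 were high in all 3 libraries and STIP1 in liver only. HSP90AB1 had an FPKM of 214, 462 and 253, HSP90AA1 88.9, 112 and 213, PTGES3 81.1, 77.0 and 175, and STIP1 24.6, 13.005 and 44.0. Of the 11 genes of receptor and hormone activation, 5 were high in all 3 libraries. Liver exceeded the library labelled small intestine for 5 and was lower for 2, and exceeded salivary glands for 4 and was lower for 3. Salivary glands exceeded the library labelled small intestine for 2 of 10 tested and were lower for 0. The shares of all genes beside these counts, and beside those of the lists below, are the ones given for the members: 23.0% higher and 26.0% lower, 23.8% and 24.2%, and 17.2% and 21.5%. Beside counts of genes high in all 3 libraries the share is 5.57%.

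Other genes known to be induced by glucocorticoids formed a list of 17, with a median FPKM of 47.6, 38.7 and 93.5, and 8 of them were high in all 3 libraries. Liver exceeded the library labelled small intestine for 6 of 16 tested and was lower for 5, and it exceeded salivary glands for 6 and was lower for 5. Salivary glands were higher than the library labelled small intestine for 3 and lower for 3.

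Its most abundant gene in salivary glands and liver was the metallothionein MT1A, a metal-binding protein, at an FPKM of 783, 8565 and 15634. GLUL, which makes glutamine, was the most abundant in the library labelled small intestine, at 1096, 3479 and 93.5. Both were higher in salivary glands than in that library, MT1A by 12.4-fold (11.7 to 13.03) and GLUL by 3.27-fold (3.22 to 3.31), whereas in liver against salivary glands GLUL was 39.1-fold lower (37.8 to 40.4) and MT1A 1.82-fold higher (1.796 to 1.85), under the 2-fold rule. TAT, which opens tyrosine breakdown, had an FPKM of 4316 in liver from 141500 counts, with 0 and 4 counts elsewhere, at least 27863-fold higher than in the library labelled small intestine. ERRFI1, a feedback inhibitor of the EGF receptor, stood at 20.8, 194.9 and 570. Like SGK1, DDIT4 and KLF9 among the members, ERRFI1 and MT1A were highest in liver.

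Genes of the fasting liver, a list of 18, had a median FPKM of 5.44, 2.79 and 20.1, with 1 of 18 high in all 3 libraries, near the 5.57% of all genes. Liver exceeded the library labelled small intestine for 9 of 18 and salivary glands for 10 of 18, and was lower for 1 in each. IGFBP1, a secreted protein that binds insulin-like growth factors, had an FPKM of 19034 in liver from 380327 counts, and 1 count in each other library. PCK1, which commits carbon to glucose production, had 2584 in liver, from counts of 13, 35 and 116176. G6PC, which releases free glucose, had 509, from 8940 counts in liver and 0 elsewhere, at least 1760-fold and 1979-fold higher. These 3 genes had an FPKM of at most 1.22 outside liver, but 10 of the 18 were above 1 in all 3 libraries. CPT1A, of fatty acid entry into mitochondria and named after its values were seen, was lower in liver, at 75.9, 67.2 and 10.3.

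Over the list, salivary glands exceeded the library labelled small intestine for 1 of 13 tested and were lower for 3. The hormone gene FGF21, named after its values were seen, was low in the liver library itself, with 62 counts and an FPKM of 4.39.

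Genes of fat synthesis and the fed state, a list of 12, had a median FPKM of 1.38, 2.41 and 4.81, and 1 was high in all 3 libraries. SREBF1, the regulator of fat synthesis, was that gene, at an FPKM of 181, 51.3 and 107. ACLY, which makes cytosolic acetyl-CoA, had 13.4, 174 and 7.72 and was 22.6-fold lower in liver than in salivary glands (20.8 to 24.6). MLXIPL, a glucose-sensing factor, had 0.357, 3.41 and 56.2. Liver exceeded the library labelled small intestine for 1 of 9 tested and was lower for 1, exceeded salivary glands for 2 and was lower for 3, and salivary glands exceeded the library labelled small intestine for 2 and were lower for 1. The fed-state list was thus far below the members in every library by its median. The fasting liver list was below them as well, at 5.44, 2.79 and 20.1, and the median of all genes was 2.16, 1.76 and 1.89.

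DDIT4 and TXNIP also answer to low oxygen, immediate signals or amino acid shortage, so 3 further lists were counted. The 14 low oxygen genes had a median FPKM of 21.4, 10.96 and 15.4, with 3 high in all 3 libraries. Salivary glands were lower than the library labelled small intestine for 7 and higher for 1. Liver was lower than that library for 5 and higher for 1, and was lower than salivary glands for 2 and higher for 3.

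Among them LDHA, of lactate formation, had 103, 78.8 and 294, and ENO1, of glycolysis, 53.9, 72.0 and 82.4. NDRG1, a stress-responsive protein, had 67.8, 27.3 and 12.4. CA9, a carbonic anhydrase, had 26.6, 3.22 and 2.42, and EGLN3, a prolyl hydroxylase that senses oxygen, 13.6, 2.22 and 2.9998. A second, shorter EGLN3 model had 29.2, 4.63 and 3.79. NDRG1, CA9 and both models of EGLN3 were highest in the library labelled small intestine.

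The 11 immediate early genes, which answer to signals within minutes, had a median FPKM of 38.6, 59.9 and 76.1, with 6 high in all 3 libraries. Salivary glands were higher than the library labelled small intestine for 6 and lower for 0, liver was higher than that library for 5 and lower for 0, and liver was higher than salivary glands for 2 and lower for 1. BTG2, which slows cell division, had 67.6, 267 and 155, NR4A1, an orphan nuclear receptor, 52.7, 164 and 81.3, and ZFP36, which destabilises cytokine mRNA, 146, 152 and 80.8. ATF3, a stress factor, had 5.42, 11.7 and 96.1, EGR1 18.3, 59.9 and 76.1, and FOSB 0.269, 1.002 and 1.64. BTG2 and NR4A1 had the order of DUSP1, itself an early gene, with salivary glands the highest.

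The 10 genes of the ATF4 response to amino acid shortage had a median FPKM of 7.45, 11.9 and 18.6, with 1 high in all 3 libraries. That gene was ATF4 itself, at 305, 400 and 701. Liver exceeded the library labelled small intestine for 6 and was lower for 1, and it exceeded salivary glands for 6 and was lower for 2. Salivary glands were higher than the library labelled small intestine for 3 and lower for 1. ATF5 had 4.49, 8.91 and 88.9, TRIB3 6.51, 9.28 and 47.2, and DDIT3 38.4, 22.9 and 88.9, all highest in liver, as DDIT4 was, and PSAT1, of serine synthesis, was lowest there, at 8.39, 14.4 and 1.37.

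**Figure D5:**
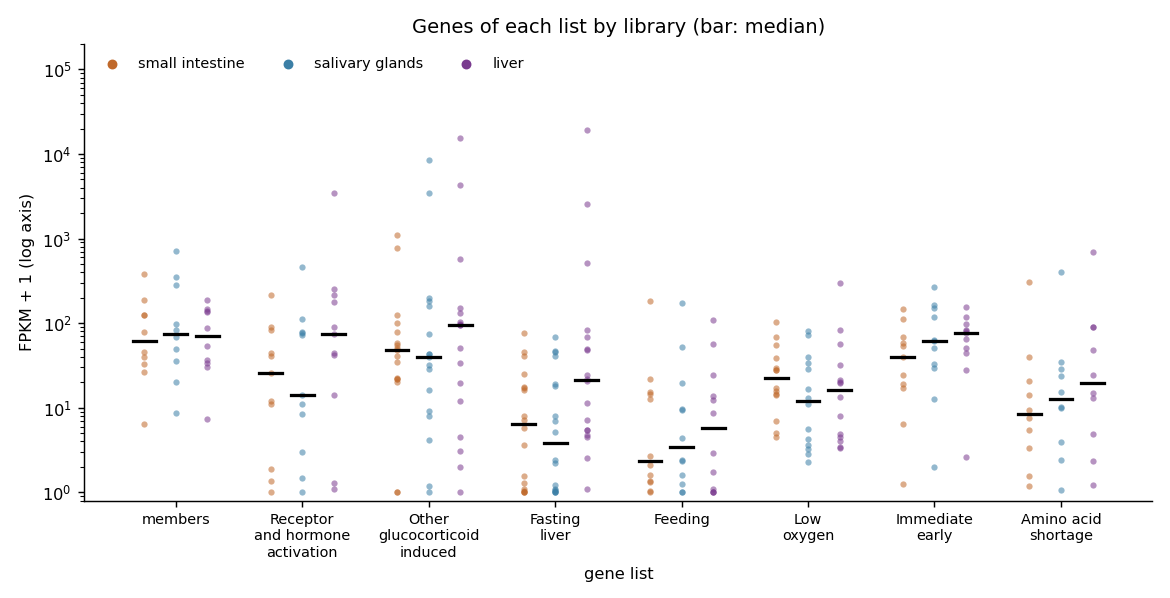
FPKM plus 1 (log axis) of the genes of each list in the 3 libraries, with a bar at the median. The members' medians were 60.7, 74.4 and 69.2, and the fasting liver list rose from 5.44 and 2.79 to 20.1 in liver.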

How the data were processed

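The authors sequenced paired RNA reads of 3 tissues of 1 animal, mapped them with TopHat2 on the species' genome, and added new genes with Cufflinks; RSEM is named for FPKM, and no tool is named for the counts in the sources used here. The deposited count is a whole number of fragments per gene, not scaled. The deposited FPKM was made by the authors as fragments over transcript length and mapped fragments, but in the values it was not a fixed multiple of count over the listed length. A deposited score, the count scaled per library by the authors, served as an alternative only. The authors' annotation columns gave symbols and product names.

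TMM factors came from edgeR 4.0.16 in R 4.3.3. Other steps used Python 3.11.15, pandas 2.3.3, numpy 2.4.6, scipy 1.17.1 and matplotlib 3.10.9. A count of 0 was taken at a floor of 3 counts, and a gene with at most 3 counts in both libraries of a comparison was not tested. Where several models carried one product, the model with the most counts was used. With 1 library per tissue no test was run. The steps were tested on simulated counts in which most genes did not differ between libraries. That check does not cover libraries that differ as widely as these.

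The members and lists were chosen with earlier results of these data known. Gene models of some list genes were settled by hand from the NR product names with values in view. Some alternatives were chosen after seeing the data. Named genes were the members, their families, the receptor list, and, of each other list, the 3 with the highest FPKM and the 3 with the largest fold between libraries among genes above an FPKM of 1. Positions are those the authors gave on NW scaffolds, whose build is not named in the sources used here. Promoter motifs were not analysed here, and a RefSeq gene table of another assembly was not used here. Single values of some genes of the families and lists are not reported here.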

Additional observations from a re-analysis of the deposited data

How the results depend on the processing

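With the top 5% of genes as the rule for a high level in place of the top 10%, 4 members were high in all 3 libraries and 5 in liver. At 4-fold in place of 2-fold, 2 members differed between liver and the library labelled small intestine, 3 between liver and salivary glands, and 2 between salivary glands and the library labelled small intestine, against 26.3%, 24.8% and 17.9% of all genes, and these counts were near those shares. At the top 5% the share of all genes high in all 3 libraries was 2.498%. Every other count of members high or called in either direction together stayed within 1.5 times its value under the alternatives run: the top 25%, genes with an FPKM above 1, CPM, no new genes, members by NR product alone, library size, median of ratios (the size factors of DESeq2, computed here), upper quartile, FPKM with a pseudocount of 1, and intervals wholly past 2-fold. The share of all genes called changed with FPKM and that pseudocount. Over the genes tested on counts, a check chosen after seeing the data, it was 33.5%, 32.3% and 22.9% against 49.0%, 48.0% and 38.7%, and over all 24220 models 26.4%, 24.98% and 17.4%. Member counts held within the same limit for alternatives chosen after seeing the data: count per kilobase, the authors' scaled count, members by Swiss-Prot symbol alone (8 genes) and leaving out the library labelled small intestine.

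Of 183 values of a member's fold under an alternative, none of those called at 2-fold changed sign, 11 of the others did, and 4 crossed 2-fold, all with library size only, under which salivary glands were higher than the library labelled small intestine for 5 members and lower for 1, against 3 and 2 with TMM. The crossings were those of TXNIP in both comparisons with the library labelled small intestine, and of DDIT4 and KLF9 between salivary glands and that library. By FPKM liver was the lowest library for 3 members and on scaled counts for 5. Library size only moved all genes by 0.46 (log2) for salivary glands over the library labelled small intestine, by 0.24 for liver over that library and by -0.22 for liver over salivary glands. Counting error limited ANGPTL4 most, with an interval half-width of 21.01% at 92 counts. No paired analysis was possible because each tissue had 1 library.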
